A study of Drosophila melanogaster with 3 samples.

Results

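The 10 genes described here encode the non-muscle and unconventional myosins of the fly, the motors that move along or pull on actin filaments outside the muscle sarcomere. They were chosen by gene name, by a rule that uses no measured value, although earlier results of these data were known. They are *zip*, *sqh* and *Mlc-c*, which encode the chains of non-muscle myosin II, and 7 heavy chains of unconventional myosins, *jar*, *ck*, *didum*, *Myo31DF*, *Myo61F*, *Myo10A* and *Myo95E*. All 10 were found among the 17768 genes listed for each library. Nephrocytes were dissected from adult female flies aged 4 days that carried *Hand*-GFP together with *Klf15*-Gal4 and UAS-RFP/CyO, kept on a normal diet with 6% sucrose. Large cells positive for both GFP and RFP were sorted by flow cytometry, pooled from many flies, and their RNA was amplified and sequenced as 3 libraries of a single control condition. The GFP and RFP were driven by sequences of *Hand* and *Klf15*, so the sort depended on where these are active. No second condition was measured, so the comparisons below are between genes within a library and between libraries.

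Myosin II is a hexamer of a pair of heavy chains, each carrying 1 regulatory and 1 essential light chain, and it assembles into filaments that contract actin networks at the cell cortex. Phosphorylation of the regulatory light chain switches it on. Unconventional myosins do not form such filaments and instead link membranes, vesicles or adhesion proteins to actin, and many of them use calmodulin as a light chain. In the nephrocyte, actin lies beneath the slit diaphragms and around the lacunar channels, and in human podocytes defects of a non-muscle myosin II heavy chain and of a class I myosin cause glomerular disease.

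The expected counts, the reads assigned to genes by RSEM, summed to between 7808930 and 8801238 per library. Levels are given in TPM, a share of all transcripts that is corrected for their length, so that genes can be set side by side. Labels that call the cells nephrocytes were checked with 8 nephrocyte genes, all at 1 TPM or more in every library. Among them were *Amnionless* at 5794 ± 591 TPM and *sns*, the fly nephrin, at 122 ± 48.4 TPM (SD, n = 3). *Hand* and *Klf15* are also among the 8, and because the sort used their sequences, their levels do not check the labels. Muscle and heart genes were also abundant, with 13 of 15 at 1 TPM or more in every library and a summed level of 6507, 3443 and 11012 TPM in libraries 1, 2 and 3. *fln*, a flight muscle gene, had 0 counts in every library. Of 10 hemocyte genes 3 reached 1 TPM in every library, as did 1 of 7 fat body genes, and none of 4 neuron and glia genes or 4 germ line genes. The hemocyte genes summed to 564, 388 and 489 TPM, nearly all of it *crq* and *srp*, while the defining hemocyte gene *Hml* had 0, 0 and 1 counts. Long transcripts were low in library 2, which touches most of the heavy chains and is described with them below.

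Of the 10 myosins, 8 reached 1 TPM in every library, against 40.5% of all listed genes. The exceptions were *Myo61F*, which fell short in library 2, and *Myo10A*, which had no count. Together the 10 genes made up 827, 822 and 956 TPM in libraries 1, 2 and 3. The 2 light chains carried most of this, at 759 ± 50.2 TPM, against 109 ± 44.3 TPM for the 8 heavy chains (SD, n = 3). Among these 8 the 7 unconventional myosins summed to 71.4 ± 23.6 TPM and *zip* stood at 38.1 ± 20.7 TPM (SD, n = 3). The motor of non-muscle myosin II was thus a minority of the RNA of the 8 in each library. *Mhc*, the muscle myosin II heavy chain, is not among them. It was at 364, 92.1 and 790 TPM in libraries 1, 2 and 3, above the sum of the 8 at 119, 61.2 and 148 TPM.

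**Figure D1:**
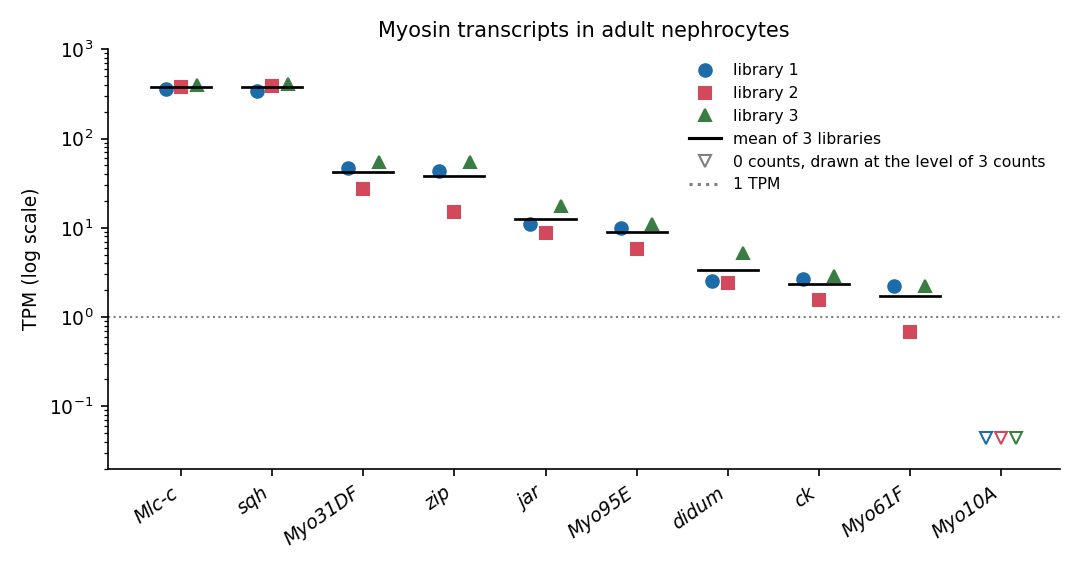
TPM of the 10 myosin genes in each of the 3 libraries on a log axis, ordered by the mean, which is drawn as a bar. The light chains *Mlc-c* and *sqh* lie near 380 TPM with their 3 points close together, the heavy chains spread from *Myo31DF* at 42.6 TPM down to *Myo61F* at 1.71 TPM, and open triangles mark *Myo10A*, which had 0 counts.

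*sqh* (FBgn0003514) encodes the regulatory light chain and lies on chromosome X from 6223061 to 6225140 in the BDGP6.54 annotation, with 5 transcripts. It was at 345, 384 and 409 TPM in libraries 1, 2 and 3, a mean of 379 ± 32.3 TPM (SD, n = 3) that ranked 404th among all listed genes. *Mlc-c* (FBgn0004687) encodes the essential light chain and lies on chromosome X from 5619136 to 5622539, with 2 transcripts. It was at 363, 377 and 399 TPM, a mean of 380 ± 18.4 TPM (SD, n = 3), 403rd among all genes. The 2 light chains were thus level and steady, with a coefficient of variation of 8.50% for *sqh* and 4.84% for *Mlc-c*. On the log2 scale the SD over libraries was 0.069 for *Mlc-c*, smaller than that of all but 4.95% of the 7193 detected genes, and 0.12 for *sqh*, where 14.8% of detected genes had a smaller one. These shares are over genes of every length, and both light chains are short, at 1117 bases for *sqh* and 1302 for *Mlc-c*. Long transcripts were low in library 2, and no share among genes of similar length was computed for the SD.

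The order of the light chains was not settled. *sqh* was below *Mlc-c* in library 1 and above it in libraries 2 and 3, with ratios of 0.951, 1.02 and 1.02. The log2 ratio of *sqh* over *Mlc-c* was -0.0034 ± 0.060 (SD, n = 3; p = 1 by an exact two-sided permutation of signs, adjusted p = 1 over the 45 pairs of these genes). Leaving out library 1 turned its sign, to 0.031, still within a few percent of equal levels. The log2 ratio was at most 0.073 from 0 in any library, so near-equal levels of RNA for both light chains were measured in every library. A test on 3 libraries cannot go below p = 0.25 in this exact permutation, so no pair could pass a threshold of 0.05. A pair is therefore said to differ beyond its spread where the ratio had the same sign in 3 of 3 libraries and a mean larger than its SD.

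*zip*, the heavy chain of non-muscle myosin II, was listed in the files under FBgn0265434 and matched through its transcripts to FBgn0287873 in the annotation, on chromosome 2R from 24990570 to 25011965, with 9 transcripts. It was at 43.8, 15.1 and 55.3 TPM in libraries 1, 2 and 3, resting on 2103, 736 and 2631 expected counts. Library 2 was well below the others and library 3 the highest. The coefficient of variation of *zip*, 54.4%, was the largest of the 9 myosins with counts, and its SD on the log2 scale, 1.00, was larger than that of 97.1% of detected genes. This spread rests on library 2, and without it the SD of *zip* was 0.24.

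Both light chains exceeded the heavy chain in every library. *sqh* was 7.88, 25.5 and 7.39 times *zip* in libraries 1, 2 and 3, and the log2 ratio averaged 3.51 ± 1.00 (SD, n = 3; exact permutation p = 0.25, adjusted p = 0.268). *Mlc-c* was 8.29, 25.0 and 7.22 times *zip*, a log2 ratio of 3.51 ± 0.98 (SD, n = 3; p = 0.25, exact sign-flip permutation test, adjusted p = 0.268). The protein complex holds as many light chains of each kind as heavy chains, and the RNA of each light chain was several times that of *zip*. These ratios are to *zip* alone, and any use of a light chain by other heavy chains was not measured. Without library 2 the log2 ratios were 2.93 for *sqh* and 2.95 for *Mlc-c*. After a trend of level on transcript length had been taken out of every library, *sqh* was 9.62, 16.2 and 9.33 times *zip* in libraries 1, 2 and 3. That adjustment makes the libraries alike and cannot show a loss of long transcripts common to all 3, whose part in the ratio was not tested.

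**Figure D2:**
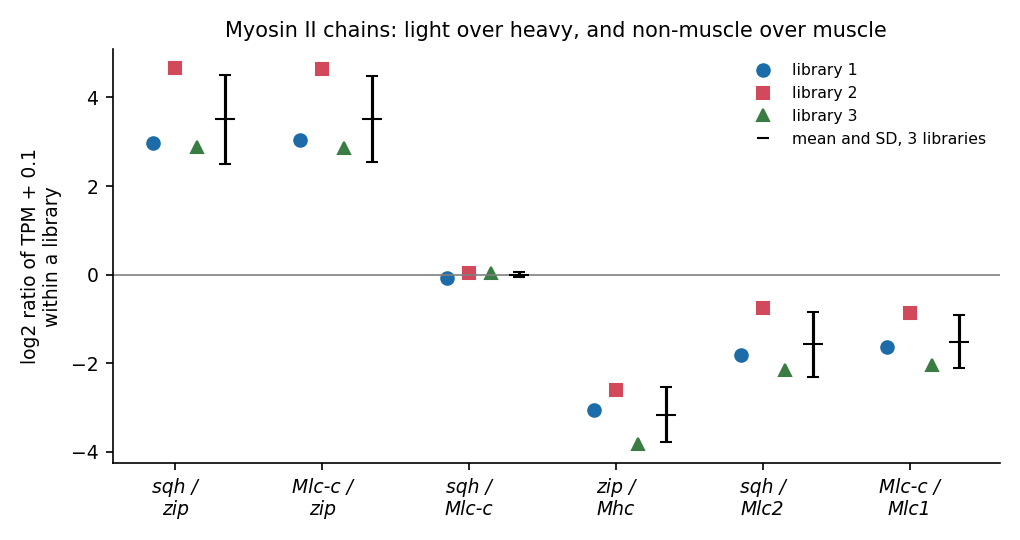
Log2 ratios within each library for the chains of non-muscle myosin II and for each chain against its muscle counterpart, with a pseudocount of 0.1 TPM; points are libraries and the bar gives the mean and SD of 3 libraries. *sqh* over *zip* and *Mlc-c* over *zip* lie near 3 in libraries 1 and 3 and above 4.6 in library 2, *sqh* over *Mlc-c* lies at 0, and all 3 non-muscle chains lie below their muscle counterparts.

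Each non-muscle chain was below its muscle counterpart. *zip* was 0.120, 0.164 and 0.0700 times *Mhc*, the muscle heavy chain, in libraries 1, 2 and 3, and the log2 ratio averaged -3.16 ± 0.62 (SD, n = 3). *sqh* was 0.285, 0.592 and 0.223 times *Mlc2*, the muscle regulatory light chain, a log2 ratio of -1.58 ± 0.73, and *Mlc-c* was 0.321, 0.552 and 0.242 times *Mlc1*, the muscle essential light chain, a log2 ratio of -1.51 ± 0.60 (SD, n = 3). Each was lower in 3 of 3 libraries (p = 0.25 by the exact sign-flip permutation test, adjusted p = 0.25 over these 3 pairs). *Mhc* stood at 364, 92.1 and 790.2 TPM, and the 3 ratios were highest in library 2 and lowest in library 3. The muscle chains are the denominators of these ratios and were themselves lowest in library 2 and highest in library 3. They are also counted among the muscle genes, so the match with those genes is not a separate observation. How much of the muscle RNA, or of the myosin RNA, came from muscle or heart material was not tested, and in sorted bulk cells fewer cells of a type and less RNA per cell cannot be told apart.

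*Myo31DF* (FBgn0086347) encodes myosin ID, a class I myosin known in the fly for setting left-right asymmetry. It lies on chromosome 2L from 10491814 to 10506779, with 3 transcripts, and was at 46.6, 27.1 and 54.1 TPM in libraries 1, 2 and 3, a mean of 42.6 ± 14.0 TPM (SD, n = 3), 2262nd among all genes. By its mean it was the most abundant of the 8 heavy chains, ahead of *zip*, but the 2 did not differ beyond their spread. *Myo31DF* was 1.06, 1.80 and 0.979 times *zip*, and the log2 ratio averaged 0.30 ± 0.47 (SD, n = 3; exact permutation p = 0.5, adjusted p = 0.511), and without library 2 the log2 ratio was 0.030. Its expected counts were not whole numbers, within 0.005, in any library, in contrast to the other 9 myosins. An antisense RNA gene, *asRNA:CR44224*, shares 479 exonic bases with it on the opposite strand at a mean of 2.52 TPM, and since the strand setting is not given in the sources used here, reads of the 2 cannot be told apart there.

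*Myo61F* (FBgn0010246), the gene of myosin IC, the other class I myosin of the fly, was far lower. It lies on chromosome 3L from 1318480 to 1329617, with 4 transcripts, and was at 2.24, 0.68 and 2.21 TPM in libraries 1, 2 and 3. These values rest on 53, 16 and 52 counts. The 95% Poisson interval, which covers counting error only, was 0.389 to 1.10 TPM in library 2, below those of 1.68 to 2.93 TPM in library 1 and 1.65 to 2.90 TPM in library 3. *Myo31DF* exceeded *Myo61F* in 3 of 3 libraries, with a log2 ratio of 4.67 ± 0.41 (SD, n = 3; p = 0.25, exact sign-flip permutation test, adjusted p = 0.268). Of the RNA of class I myosins, nearly all was therefore *Myo31DF*.

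*jar* (FBgn0011225) encodes myosin VI, which moves toward the pointed end of actin filaments, opposite to other myosins. It lies on chromosome 3R from 24252826 to 24271233, with 9 transcripts, and was at 11.2, 8.66 and 17.6 TPM, a mean of 12.5 ± 4.59 TPM (SD, n = 3), 4661st among all genes. Library 3 stood apart here more than library 2, with 587 expected counts against 375 and 286 in libraries 1 and 2. *zip* exceeded *jar* in every library, with a log2 ratio of 1.47 ± 0.61, and *jar* exceeded *Myo95E*, next in the order, with a log2 ratio of 0.47 ± 0.27 (SD, n = 3; p = 0.25 for both, exact sign-flip permutation test, adjusted p = 0.268).

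*Myo95E* (FBgn0039157), an unconventional myosin gene on chromosome 3R from 24154826 to 24161498 with 6 transcripts, was at 9.94, 5.75 and 10.9 TPM, a mean of 8.88 ± 2.75 TPM (SD, n = 3). On the opposite strand *CG6178*, at 27.8 TPM, shares 71 exonic bases with it. Its ratio to *Myo31DF* was steadier than either level. The log2 ratio of *Myo31DF* over *Myo95E* was 2.22, 2.22 and 2.30 in libraries 1, 2 and 3, while each of the 2 genes was lowest in library 2.

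*didum* (FBgn0261397) encodes myosin V, a vesicle carrier that moves cargo along actin. It lies on chromosome 2R from 7500147 to 7508625, with 3 transcripts, and was at 2.54, 2.42 and 5.22 TPM. Libraries 1 and 2 were level, and library 3 was higher by a log2 ratio of 1.01 to library 1. The 95% Poisson interval of 4.58 to 5.92 TPM in library 3 lay above those of 2.11 to 3.04 TPM in library 1 and 1.99 to 2.91 TPM in library 2. It shares 99 exonic bases on the opposite strand with *mEFTu2*, a gene at 34.6 TPM, and without a known strand setting reads of the pair cannot be told apart there.

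*ck* (FBgn0000317) encodes myosin VIIa, which in the fly shapes bristles and hairs and in the ear of mammals is needed for hair bundles. It lies on chromosome 2L from 15044963 to 15057862, with 4 transcripts, and was at 2.68, 1.54 and 2.87 TPM, a mean of 2.36 ± 0.72 TPM (SD, n = 3). *didum* and *ck* did not differ beyond their spread, with a log2 ratio of *didum* over *ck* of 0.46 ± 0.48 that was above 0 in 2 of 3 libraries (p = 0.5, exact sign-flip permutation test, adjusted p = 0.511). *ck* was above *Myo61F* in every library, by a log2 ratio of 0.56 ± 0.45 (SD, n = 3).

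*Myo10A* (FBgn0263705), a myosin of the group with MyTH4 and FERM domains in its tail, lies on chromosome X from 10930840 to 10964046, with 4 transcripts. It had 0 counts in all 3 libraries, which allows a level of up to 0.0444, 0.0448 and 0.0445 TPM, the value of 3 counts. At this depth its RNA was not detectable. Of the 9 pairs of neighbours in the order of levels 6 differed beyond their spread, and the exceptions were *Mlc-c* and *sqh*, *Myo31DF* and *zip*, and *didum* and *ck*. Among the 36 pairs that leave out *Myo10A*, 33 did so.

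Within the heavy chains the composition was more even between libraries than the levels. *Myo31DF* made up 39.2%, 44.3% and 36.5% of the summed TPM of the 8 heavy chains in libraries 1, 2 and 3, and *zip* 36.8%, 24.6% and 37.3%. *jar* followed at 9.37%, 14.1% and 11.8% and *Myo95E* at 8.36%, 9.39% and 7.38%. The other 3 with counts, *didum*, *ck* and *Myo61F*, each stayed below 4% in every library. *Myo31DF* and *zip* together thus made up most of the TPM of these 8 in each library, and *zip* had the largest SD of its share, 7.19 percentage points over 3 libraries.

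**Figure D3:**
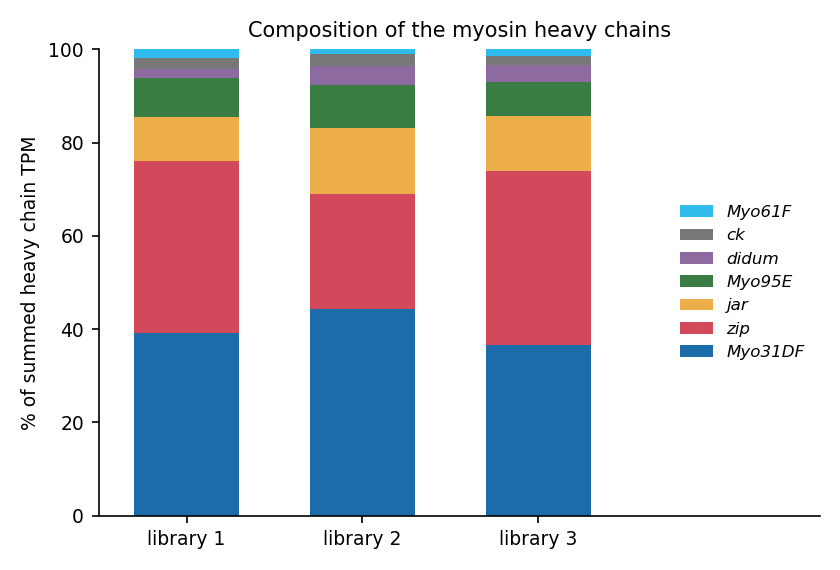
Share of each heavy chain in the summed TPM of the 8 heavy chains, by library; *Myo10A* had 0 counts and is not drawn. *Myo31DF* and *zip* form the bulk of each bar, and the *zip* segment is 24.6% in library 2, against 36.8% and 37.3% in libraries 1 and 3.

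Library 2 stood apart for most of the heavy chains, and library 3 for *jar* and *didum*. All 7 heavy chains with at least 10 counts in every library were lowest there, while 49% of the 7250 genes with such counts were. Their transcripts are long, from 3369 bases for *Myo61F* to 7247 bases for *ck*, and among the longest 3 eighths of genes by length 78.4% were lowest in library 2. The count of 7 is thus to be read against the share for long genes. Library 2 was set against the average log2 level of the other libraries, and the median difference was -0.85 for these heavy chains and -0.14 for all 7250 genes. The short light chains did not share it, at 0.034 for *sqh* and -0.014 for *Mlc-c*.

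Set against genes of similar length, the heavy chains fell into those near the median and those below it. In the longest eighth of genes, with a median of -0.89, *Myo95E* was at -0.85, *ck* at -0.81, *jar* at -0.69 and *didum* at -0.57. *zip*, of the same eighth, was at -1.70, with 8.71% of the genes of that eighth lower. In the next eighth, with a median of -0.62, *Myo31DF* was at -0.89, and *Myo61F* at -1.58 had 4.08% of its eighth below it. With the trend on length removed, *jar*, *ck*, *didum* and *Myo95E* lay between 0.013 and 0.30, *Myo31DF* at -0.23, *zip* at -0.84 and *Myo61F* at -1.05. Of the 9 myosins with such counts 2, *zip* and *Myo61F*, were at or below -1 before the adjustment, where 11% of all genes were. Among genes of similar length the share was larger, 43.2% in the eighth of *zip* and 19.8% in that of *Myo61F*. The value of *Myo61F* rests on the 16 counts given above.

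**Figure D4:**
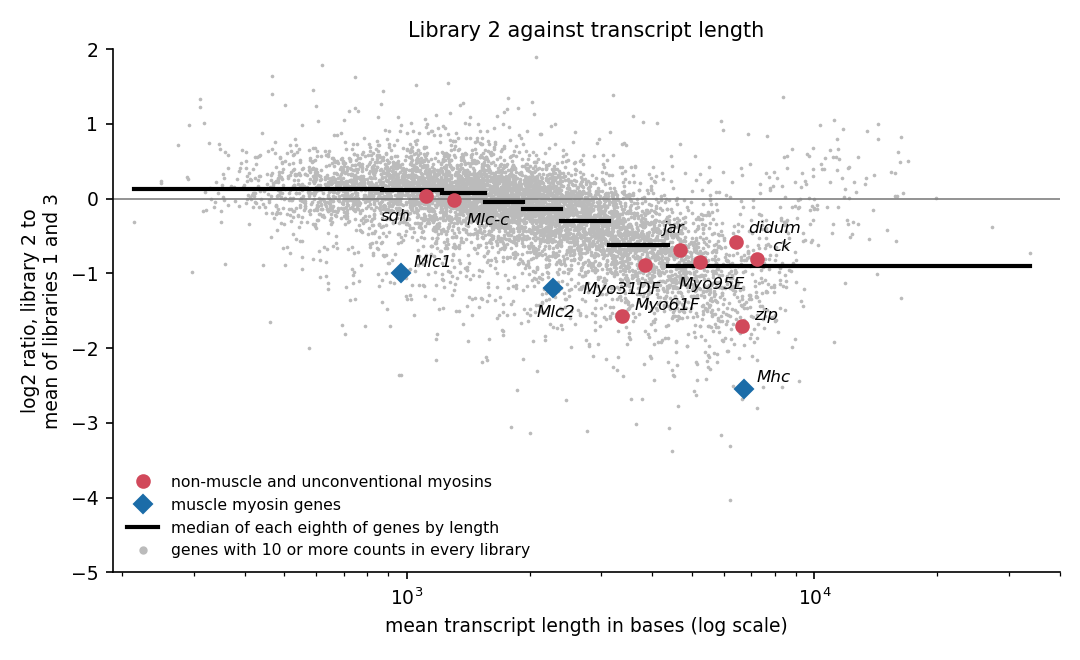
Log2 level in library 2 less the average of libraries 1 and 3, against mean transcript length, for 7250 genes in grey, with black bars for the median of each eighth of genes by length. Myosins are red circles and the muscle genes *Mhc*, *Mlc1* and *Mlc2* blue diamonds; *jar*, *ck*, *didum* and *Myo95E* lie near the bar for their length, and *zip* at -1.70, *Myo61F* at -1.58 and the muscle genes lie below it.

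Muscle genes were low in library 2, as *zip* was. The 13 detected muscle and heart genes had a median of -1.14, and -1.18 with the trend on length removed, with *Mhc* at -2.54 and *Mlc2* at -1.20. Of these 13 genes 11 were lowest in library 2 and 13 highest in library 3. Nephrocyte genes, 4 of 8 lowest in library 2, ranged from -1.18 for *sns* to 0.39 for *Cubn*, with a median of -0.12, and with the trend on length removed the median was 0.060 and *sns* was at -0.44. Between libraries 3 and 1, where the medians of the length eighths lay between 0.14 and 0.23, the log2 ratio of library 3 to library 1 was 0.34 for *zip* and 0.74 for the median of the muscle genes, against 0.18 for the median of all genes. Whether muscle or heart material had a part in the level of *zip* was not tested. Of the 9 myosins with counts 8 were highest in library 3, against 52.9% of genes, with *didum* at 1.01 and *jar* at 0.65 furthest from library 1 and *Myo61F* at -0.019 the exception. The 7 fat body genes also summed highest in library 3, at 10.8, 14.6 and 304 TPM in libraries 1, 2 and 3, and nearly all of the library 3 sum was *Obp99b*, at 8.73, 12.8 and 299 TPM, while *Fbp1* and *Lsp2* had 0 counts. Its part in the library 3 levels of the myosins was not tested.

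Of the 6 other myosin heavy chain genes of the fly that were looked up, 3 were detected, against 40.5% of all listed genes. *Mhc* was at 415 ± 352 TPM, *Mhcl*, a class XVIII myosin, at 29.4 ± 11.5 TPM and *Myo28B1*, a second class VII myosin, at 2.49 ± 0.62 TPM (SD, n = 3). *ninaC*, the photoreceptor myosin III, *dachs*, an atypical myosin of Fat signalling in growing tissues, and *Myo81F* had 0 counts in every library. *Mhcl* was at 28.3, 18.5 and 41.4 TPM in libraries 1, 2 and 3, below *Myo31DF* in each library and below *zip* in libraries 1 and 3. *Cam*, which encodes calmodulin, the light chain of many unconventional myosins, was at 358 ± 73.3 TPM (SD, n = 3), close to the levels of *sqh* and *Mlc-c*. *Cam* was 5.90, 14.2 and 7.63 times *Myo31DF*. *Acam*, the testis calmodulin-like gene, had 0 counts.

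Kinases that act on myosin II or in the same pathways were present at very different levels. *Pak*, a kinase activated by Rac and Cdc42, was at 88.4 ± 20.8 TPM (SD, n = 3). *sqa*, a kinase named for activating the *sqh* product, was at 21.3, 5.73 and 29.8 TPM in libraries 1, 2 and 3. *Rok*, a kinase that phosphorylates the regulatory light chain, was at 14.8, 5.54 and 12.1 TPM. *sqa* and *Rok* were lowest in library 2, as were 78.4% of the longest 3 eighths of genes by length, to which both belong. *Strn-Mlck*, of the myosin light chain kinase family, was at 7.42, 5.74 and 13.0 TPM. *Drak* was at 3.46, 0.90 and 2.38 TPM, short of 1 TPM only in library 2. *sti*, the citron kinase of dividing cells, had 0 counts.

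Myosin phosphatase removes the phosphate from the light chain, and 5 of the 6 genes grouped under it were detected, against 40.5% of all listed genes. The median was 120 TPM over these 5 and 20.9 TPM over all detected genes. Among the catalytic subunits grouped here, *Pp1-87B* and *flw* were at 220 ± 23.0 and 120 ± 26.7 TPM. How much of their RNA serves myosin phosphatase was not tested. *Mbs*, the subunit that binds myosin, was at 165, 82.1 and 269 TPM in libraries 1, 2 and 3, lowest in library 2 like *zip*. *Pp1-13C* had 0 counts. In every library *Mbs* RNA exceeded that of *sqa*. For folding of the myosin head, the chaperone *unc-45* was at 25.4 ± 5.91 TPM and its partner *Hsp83* at 1639 ± 196 TPM, with the cochaperone *Stip1* at 119 ± 4.23 TPM (SD, n = 3), so that all 3 genes of this list were detected.

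Partners of unconventional myosins ranged from abundant to nearly without counts. *Rab11*, the GTPase of recycling endosomes that works with myosin V in the fly eye, was at 1131 ± 91.6 TPM, and its effector *Rip11* at 60.3, 26.8 and 60.3 TPM. The junction genes *arm* and *alpha-Cat* were at 170 ± 33.2 and 88.1 ± 6.62 TPM (SD, n = 3), while *shg*, which encodes the E-cadherin they bind, was at 0.19, 0.09 and 0.06 TPM. *Cad99C* and *Sans*, which encode partners of myosin VIIa, had at most 1 count in any library. *CLIP-190*, whose protein binds myosin VI in the fly, was at 22.9, 18.3 and 42.3 TPM, and *Dab*, an endocytic adaptor, at 1.20, 0.68 and 3.42 TPM. Thus 5 of the 9 genes were detected, against 40.5% of all listed genes, with a median of 27.8 TPM over the 9.

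Of 8 genes for proteins that share actin filaments with myosin II 7 were detected, against 40.5% of all listed genes, with a median of 93.6 TPM over the 8. *Tm1*, a tropomyosin, was at 548, 340.0 and 790.2 TPM, and *Actn*, the actin crosslinker alpha-actinin also found in sarcomeres, at 95.2, 36.1 and 202 TPM. The 2 were lowest in library 2 and highest in library 3, like most of the muscle genes. Of the 7 detected genes of this list, 4 were lowest in library 2 and 6 highest in library 3. Among genes with 10 or more counts in every library the shares were 49% and 52.9%. *Septin1* and *Septin2* were at 99.6 ± 14.7 and 131 ± 16.7 TPM (SD, n = 3). *scra*, the anillin of dividing cells, was at 0.45, 0.14 and 0.17 TPM and did not reach the threshold.

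**Figure D5:**
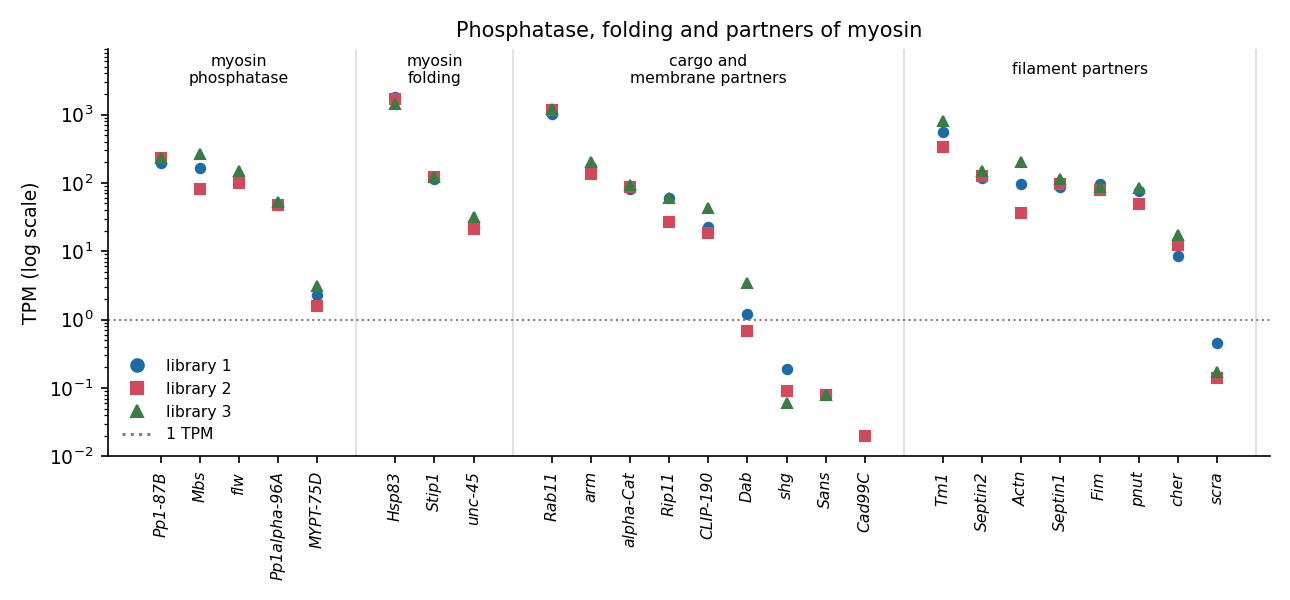
TPM on a log axis of the genes for myosin phosphatase, myosin folding and partners of myosin, by list and library; genes with 0 counts in all libraries are not drawn, nor are single values of 0. *Hsp83*, *Rab11* and *Tm1* lead their lists, *Pp1-87B* at 220 TPM leads the phosphatase genes, and *shg*, *Sans*, *Cad99C* and *scra* lie below 1 TPM.

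The profiles over the 3 libraries were compared by the root mean square difference of log2(TPM + 0.1), centred on each gene's mean, over the 47 other genes above 0 in every library among the members, the other myosins and the lists of regulators and partners, without the cell type markers. The genes closest to *zip* were *Myo61F* at 0.16, *sqa* at 0.21 and *Mbs* at 0.22. Among the cell type markers, *srp* of the hemocyte list was at 0.15 from *zip* and the muscle gene *TpnC73F* at 0.18. Those closest to *sqh* were *alpha-Cat* at 0.017, *Rab11* at 0.026 and *Pp1-87B* at 0.049. With 3 libraries that share depth and, in library 2, the trend on length, this likeness is a description only.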

How the data were processed

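RNA of sorted adult nephrocytes was sequenced in 3 libraries after low-input cDNA amplification. Reads were aligned by the authors (STAR 2.7.5c) and assigned to genes (RSEM 1.3.3; versions as in the submitters' processing notes), on a FlyBase annotation of BDGP Release 6. No strand setting was given in the sources used here. Expected counts, as deposited, are estimated counts of reads per gene without normalization. RSEM also gave the deposited TPM, scaled by the authors to 1 total in every library. The deposited FPKM values were not used. Transcript lengths in the deposited tables are averaged over isoforms. Counts come from amplified cDNA without molecular identifiers, so intervals and the limit of 3 counts cover counting error only.

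Symbols were matched by gene ID for 17671 of 17768 IDs and through transcript IDs of Ensembl release 115 (BDGP6.54) for 56 more, *zip* among them. Coordinates are from that annotation. Each replicate came from its own flies, and p-values refer to these 3 libraries only. Where a ratio between genes had the same sign in all 3 libraries, its p-value was the smallest possible, whatever its spread. Detected means 1 TPM or more in every library. Ratios between genes are log2 ratios of TPM + 0.1 within a library, tested by flipping their signs (exact permutation, two-sided), with p-values adjusted by Benjamini-Hochberg over 45 pairs of members or 3 muscle pairs. Library 2 was compared with the mean log2 value of libraries 1 and 3 for genes that had 10 or more counts throughout, in eighths by length, and with each library's lowess trend on log length removed (fraction 0.3), a procedure tested on simulated data. Alternatives were other pseudocounts, thresholds and scalings (edgeR 4.0.16 TMM and DESeq2 1.42.0 size factors on counts rounded to whole numbers), a common effective length and each replicate left out. The members and lists were chosen with earlier results of these data known. Named genes are all members and other myosins, and in each list of regulators and partners (not of cell type markers) the 2 to 4 detected genes of highest mean TPM and every gene not detected. Some upstream regulators in the list of kinases are not reported here. Beyond that rule, *CG6178*, *mEFTu2* and *asRNA:CR44224* were named for their overlaps, *Amnionless*, *sns*, *Cubn*, *fln*, *TpnC73F*, *crq*, *srp*, *Hml*, *Obp99b*, *Fbp1* and *Lsp2* as markers, and *CLIP-190*, *Rok* and *Strn-Mlck* for their roles, after their values were seen. Scripts ran in Python 3.11.15 (statsmodels 0.14.6, scipy 1.17.1, pandas 2.3.3, numpy 2.4.6) and R 4.3.3.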

Additional observations from a re-analysis of the deposited data

How the results depend on the processing

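No paired analysis was possible because the series holds 1 group. Of the alternatives for the ratios between genes, 97 kept their direction and 1 did not. Where a ratio had the same sign in all 3 libraries, leaving out a replicate or changing the pseudocount could not turn it. Much of the count of 97 was therefore fixed in advance. The log2 ratio of *sqh* over *Mlc-c* ran from -0.022 to 0.031 with each replicate left out and turned positive without replicate 1. With 2 libraries the smallest p of the sign-flip test is 0.5. With each replicate left out, the log2 ratio ran from 2.93 to 3.82 for *sqh* over *zip*, from 2.95 to 3.84 for *Mlc-c* over *zip*, from -3.44 to -2.83 for *zip* over *Mhc*, from -1.99 to -1.28 for *sqh* over *Mlc2* and from -1.84 to -1.25 for *Mlc-c* over *Mlc1*. The number of myosins detected was 9 at 0.1 and 0.5 TPM, 6 at 5 TPM and 4 at 10 TPM, and 9 by more than 3 expected counts. It was 8 to 9 with each replicate left out, with *Myo61F* entering without library 2. Without replicate 2, an alternative chosen after seeing the data, *Drak* and *Dab* also passed 1 TPM, so 6 of 9 partners of unconventional myosins were detected.

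Mean levels stayed within 1 SD in 88 of 90 alternatives, a wide limit for *zip*. With 3 libraries, leaving out a replicate or taking the median cannot move a mean by more than 1 SD. Those alternatives, and all of those for *Myo10A*, which had no count, could not fail, so the count is not a measure of stability. The exceptions were *sqh* and *Mlc-c* at 443 and 444 TPM when genes of the mitochondrial genome and ribosomal RNA were left out of the total. Removing the trend on length changed the sign of the log2 ratio of library 2 for *sqh* (-0.064), *jar* (0.14), *ck* (0.013), *didum* (0.30) and *Myo95E* (0.032), and moved *Myo31DF* to -0.23. Scaling by TMM turned none of these signs. The SD of log2 TPM over the remaining libraries changed by more than 50% for *zip* (0.24), *ck* (0.067), *Myo31DF* (0.15), *Myo61F* (0.013) and *Myo95E* (0.097) without replicate 2, and for *jar* (0.26) and *didum* (0.047) without replicate 3.

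The depth limits the statements on *Myo10A*, at 0 counts, and on *Myo61F*, with 16 counts in library 2.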
